A study of Homo sapiens with 38 samples.

Results

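SOX17, FOXA1, FOXA2, FOXA3, GATA4, GATA6, HHEX and CXCR4 are 8 genes widely used to follow the formation of definitive endoderm, and their transcript levels are described here across a time course of WNT pathway activation in human embryonic stem cells. The genes were chosen by name. All 8 were found among the 43412 genes of the count table, and all 8 were among the 24304 genes with enough counts to be tested. The cells were H9, an established human embryonic stem cell line, kept on Geltrex in mTeSR1 medium and then moved at confluence, on Matrigel, into RPMI1640 with B27 supplement lacking vitamin A. In the CHIR arm the cells received 10 µM CHIR99021, an inhibitor of the kinase GSK3, for 8, 16, 24, 48 or 72 h. In the Wnt3a arm they received 240 ng/ml recombinant Wnt3a, the secreted ligand, for 8, 24, 48, 72, 96 or 120 h. In the bcat arm, H9 cells carrying a stably integrated doxycycline-inducible beta-catenin made constitutively active by deletion of its N-terminal part (deltaN90) received 1 µg/ml doxycycline for 8, 16, 24, 48 or 72 h. Separate 0 h cells belonged to each arm, and these were undifferentiated H9 in the CHIR and Wnt3a arms and the uninduced transgenic line in the bcat arm. The 19 groups held 2 samples each, labelled as biological replicates, and total RNA was sequenced. Medium and agent changed together, so against 0 h their effects cannot be told apart. The labels do not say whether the transgenic line is 1 clone.

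Definitive endoderm arises in the embryo from cells that pass through the anterior primitive streak, where WNT signalling switches on NODAL and sustained NODAL signalling, together with the T-box factor EOMES, opens the endoderm programme. SOX17, an HMG-box factor, and the forkhead factors of the FOXA family, which can bind their sites in closed chromatin, stand at the head of that programme. GATA4 and GATA6 are zinc finger factors of endoderm and also of cardiac mesoderm and yolk sac. HHEX is a homeobox factor of anterior endoderm and of blood vessel precursors. CXCR4 is the receptor for the chemokine CXCL12 and serves as a sorting marker for definitive endoderm, but mesoderm carries it too. None of the 8 genes is by itself exclusive to definitive endoderm.

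For 5 of the 8 members (FOXA1, FOXA3, GATA6, HHEX and CXCR4, not SOX17, FOXA2 and GATA4) RefSeq start sites on build GRCh38.p14 were matched. Of these, HHEX was called in opposite directions between arms and CXCR4 was highest in the CHIR arm, and the 250 bases before their start sites are shown for this reason. HHEX lies on the plus strand at chr10:92689705-92689954 in this window, and CXCR4 on the minus strand at chr2:136118150-136118399 for the most upstream of its 3 listed start sites. The last 4 bases of the HHEX window and the last 16 of the CXCR4 window lie inside the gene as GENCODE 29 draws it. Capitals mark short motifs that were searched on both strands.
HHEX: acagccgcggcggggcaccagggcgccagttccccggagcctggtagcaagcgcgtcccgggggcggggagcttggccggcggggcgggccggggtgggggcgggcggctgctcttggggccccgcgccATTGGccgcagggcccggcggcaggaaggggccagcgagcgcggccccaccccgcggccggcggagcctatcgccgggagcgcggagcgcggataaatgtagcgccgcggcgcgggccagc
CXCR4: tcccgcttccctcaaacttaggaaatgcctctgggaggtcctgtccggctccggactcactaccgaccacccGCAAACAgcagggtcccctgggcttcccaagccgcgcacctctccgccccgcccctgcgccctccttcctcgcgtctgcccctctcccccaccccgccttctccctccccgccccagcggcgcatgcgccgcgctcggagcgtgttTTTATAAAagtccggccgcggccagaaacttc
The HHEX window was 81.2% G or C with 38 CpG dinucleotides, and the CXCR4 window 68% with 24, against a median of 58% and 11 over 35116 windows of the same length. HHEX held a reversed CCAAT box, 121 to 117 bases before its start, a motif in 32% of all windows. CXCR4 held TATAAA 30 to 25 bases before its start, overlapped by the same motif on the other strand, a motif in 10.7% of windows. It also held the forkhead form TGTTTGC on the opposite strand, 178 to 172 bases before the start, a motif in 3.23% of windows. Neither window held the TCF/LEF core CTTTGA (in 11.2% of all windows), the other forkhead form TGTTTAC (2.98%), the GATA form AGATAA (9.17%), the SOX form CATTGT (9.29%), the GSC and OTX form TAATCC (5.62%) or the T-box form TCACACC (2.76%). Of the other members in the table, the windows of FOXA1, GATA6 and FOXA3 held 1 match each, to the same forkhead form, the CCAAT box and the TATA box in that order. As GENCODE 29 draws the genes, the FOXA1 and FOXA3 windows lie wholly inside the gene and the GATA6 window partly. Such matches describe letters only.

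Library totals ran from 2.45 to 65.7 M estimated counts with a median of 19 M, and both extremes were Wnt3a 0 h libraries. The 2 Wnt3a 72 h files held identical values and were counted as 1 library (n = 1). Levels are given as CPM, counts scaled to a common library size of 1 M, so 1 CPM stood for about 3 counts in the shallowest library. Cytosolic ribosomal RNA made up 5.13% of counts in the median library but 34.1% in bcat 0 h replicate 1, 60.4% in bcat 24 h replicate 1 and 60.3% in bcat 48 h replicate 2. All bcat libraries except 0 h replicate 2 (5.79%) held 14.4% or more. In the other arms all libraries except CHIR 0 h replicate 1 (18.8%) held 9.10% or less. Mitochondrial ribosomal RNA was 0.304% to 1.35% of counts in the bcat arm and 6.58% to 16.3% in the other arms. The part of these differences in the results between arms was not tested. In every 0 h group 8 pluripotency genes, among them POU5F1, NANOG and SOX2, summed to between 3719 and 4489 CPM, as the label of an undifferentiated stem cell line implies. Fold changes against 0 h rest on few counts. Without Wnt3a 0 h replicate 2 the library left at 0 h holds 0 counts of SOX17, GATA4, GATA6 and HHEX, and without CHIR 0 h replicate 2 it holds 0 of FOXA2 and GATA4, so that no ratio can then be given. A lower bulk level can come from fewer cells of a type or from less RNA per cell, and these cannot be told apart here.

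Against 0 h the Wnt3a arm called the most members and the CHIR and bcat arms fewer, and FOXA2 was called higher at 8 h in each arm, calls that did not hold without 1 library or another (values below, with the gene). A gene was called when its adjusted p was below 0.05. In the CHIR arm 2, 2, 2, 6 and 7 of 8 members were called at 8, 16, 24, 48 and 72 h, against 21%, 15.9%, 14.5%, 33.9% and 24.9% of all genes tested. The Wnt3a numbers were 1, 4, 7, 7, 7 and 7 at 8, 24, 48, 72, 96 and 120 h, against 3.43%, 20.1%, 16.1%, 16.3%, 39.7% and 27.6%. For bcat 3, 3, 3, 5 and 5 were called at 8, 16, 24, 48 and 72 h, against 18.6%, 10.8%, 12.7%, 21.2% and 27.2%. The median log2 change of the 8 genes was 8.30 at Wnt3a 96 h and 8.16 at 120 h, where that of all genes tested was 0.06 and 0.00. It was 2.38 at CHIR 48 h and 3.83 at CHIR 72 h, against 0.02 and 0.00 for all genes. At bcat 72 h it was 0.54 when members without counts at 0 h were set to their lower bounds, against 0.06 for all genes.

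**Figure D1:**
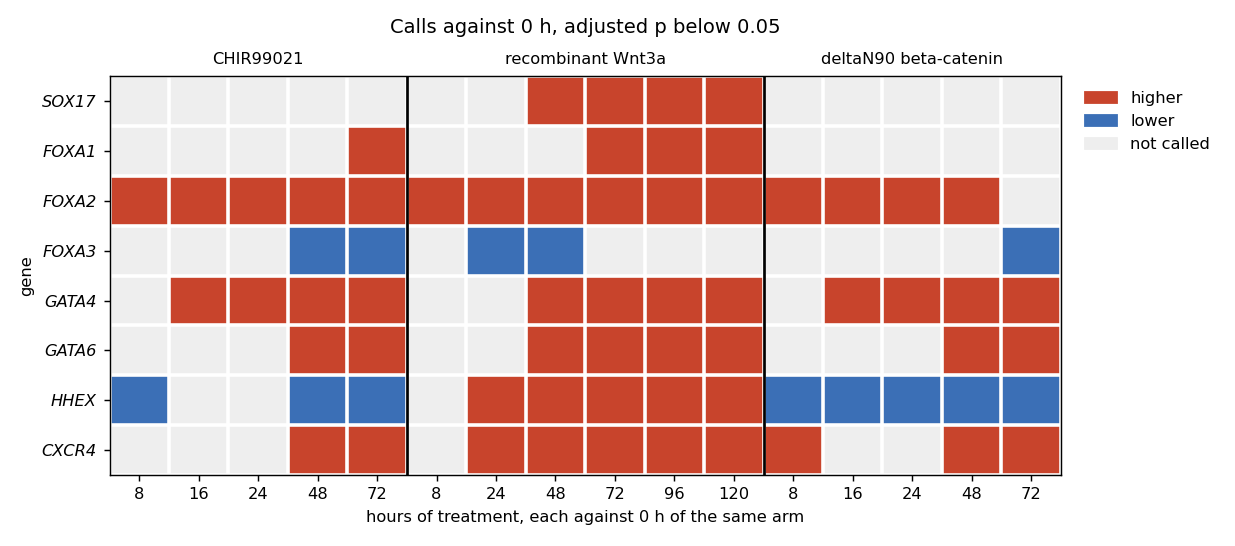
Calls against 0 h for the 8 genes (rows) at each hour of the 3 arms (columns). Red marks an adjusted p below 0.05 with a higher level, blue the same with a lower level and grey no call. HHEX is red from 24 h on in the Wnt3a arm and blue at all 5 hours of the bcat arm, and SOX17 is red only in the Wnt3a arm.

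SOX17 (ENSG00000164736.5, GRCh38 chr8:54457935-54460888, plus strand) was above 1 CPM only in the Wnt3a arm. All 12 CHIR libraries held 0 counts, which allows at most 0.0463 to 0.0794 CPM per group (3 counts). The bcat libraries held 0 to 3 counts each, with 0.223 and 0.105 CPM at 72 h. With Wnt3a the level was 0 and 0.0147 CPM at 0 h, at most 0.0925 CPM at 8 and 24 h, then 9.14 and 13.3 CPM at 48 h, 72.2 at 72 h, 153 and 88.2 at 96 h, and 146 and 82.4 at 120 h. Every Wnt3a library from 48 h on thus lay above every library of the other arms. The rise against the single count at 0 h was 876-fold at 48 h (95% counting interval 156 to 34660, adjusted p = 2.26e-07), 5141-fold at 72 h (922 to 203127, 4.8e-09), 8559-fold at 96 h (1536 to 338143, 3.63e-10) and 8245-fold at 120 h (1479 to 325768, 5.5e-10). The interval covers counting error only. Between 48 and 96 h the level rose by a further 3.38 ± 0.31 (log2 ± SE, adjusted p = 4.67e-07), while 120 against 96 h gave no call. The SOX17 calls held when any 1 library was left out.

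**Figure D2:**
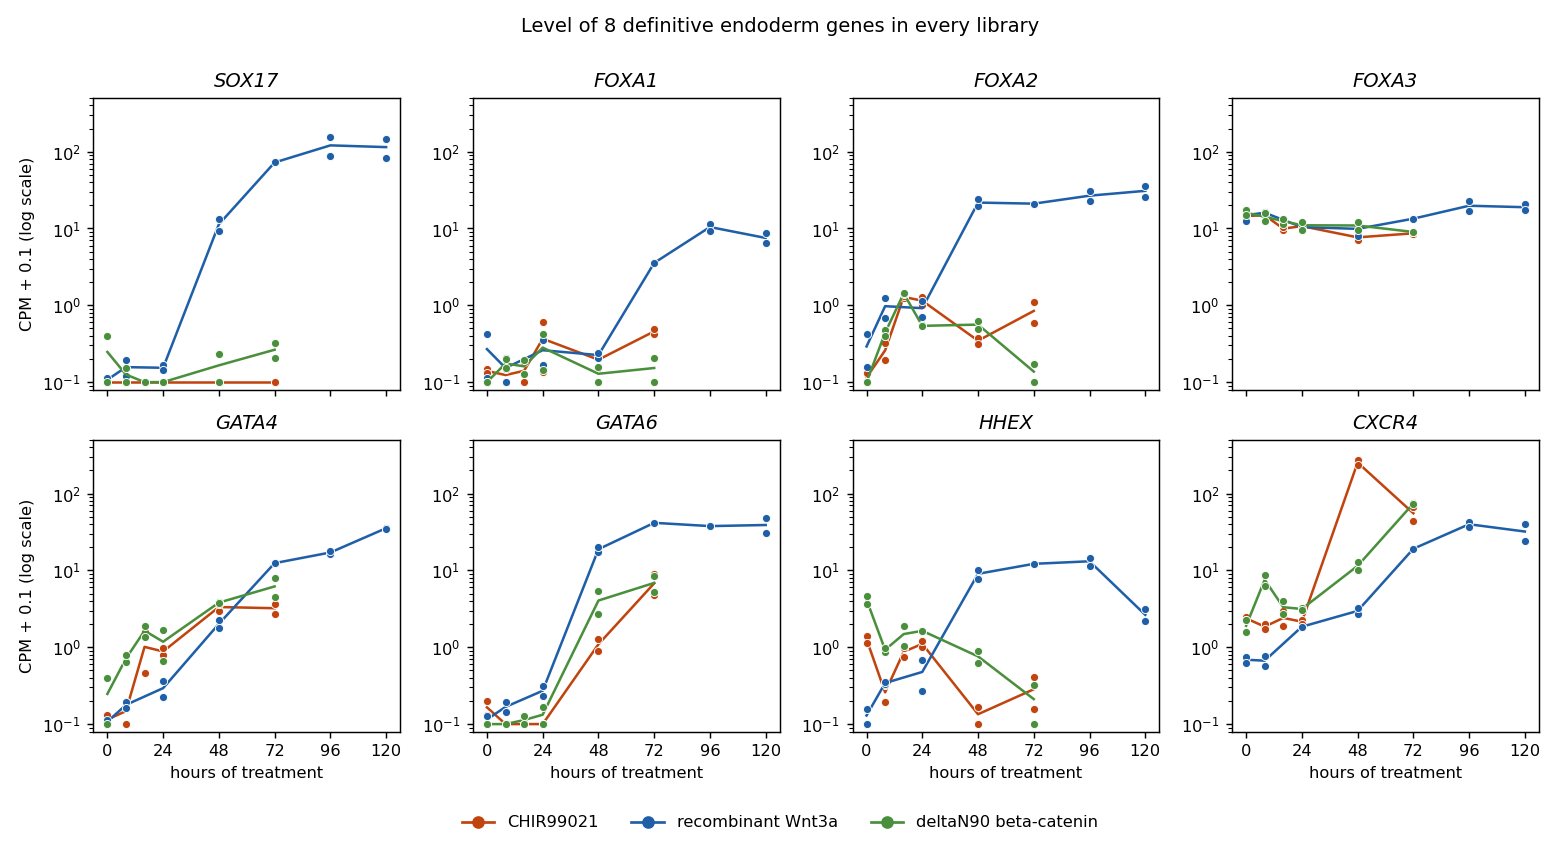
Level of each gene in every library (points) and mean of the libraries of an hour (lines), as CPM + 0.1 on a log axis against hours of treatment, for the CHIR (orange), Wnt3a (blue) and bcat (green) arms. The 2 Wnt3a libraries of SOX17 at 96 h stand at 153 and 88.2 CPM where the CHIR line stays at 0 counts, and CXCR4 in CHIR peaks at 48 h.

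FOXA2 (ENSG00000125798.14, chr20:22581005-22585455, minus strand), a forkhead factor needed for foregut and node, rose early but stayed low with CHIR99021 and beta-catenin and rose steeply with Wnt3a only after 24 h. In the CHIR arm it went from 0 and 0.0296 CPM at 0 h to 1.14 and 1.23 CPM at 16 h and 1.19 and 0.901 at 24 h. It then stood at 0.275 and 0.218 CPM at 48 h and 0.482 and 1.01 at 72 h. The 16 h level was 64.6-fold above the single 0 h count (interval 11.1 to 2605, adjusted p = 9.52e-07), and from 24 to 48 h the level fell by 1.98 ± 0.49 (log2 ± SE, adjusted p = 0.00272). The bcat arm also had its highest level at 16 h, with 0 counts at 0 h, 0.384 and 0.295 CPM at 8 h, 1.32 and 1.33 CPM at 16 h, 0.448 and 0.433 at 24 h, 0.399 and 0.523 at 48 h, and 0.0743 and 0 at 72 h. The 0 counts at bcat 0 h allow at most 0.235 CPM, and FOXA2 was called higher at 16 h (adjusted p = 0.000346) but not at 72 h. With Wnt3a, 0.323 and 0.0587 CPM at 0 h became 1.16 and 0.591 at 8 h, 1.04 and 0.597 at 24 h, and 19.3 and 24.0 at 48 h. It stayed between 20.9 and 35.9 CPM through 120 h. The step from 24 to 48 h was 4.77 ± 0.38 (adjusted p = 5.71e-10), and the change at 48 h against 0 h was 8.11 ± 0.54 (adjusted p = 3.94e-12), or 6.04 without Wnt3a 0 h replicate 2. The small early calls rested on few 0 h counts. Without Wnt3a 0 h replicate 2 the Wnt3a calls at 8 h (adjusted p = 0.648) and 24 h (0.581) were lost. With DESeq2 the calls at CHIR 8 h (0.0912) and bcat 8, 24 and 48 h (0.09, 0.0717 and 0.0629) were not made. The CHIR 8 h call was lost without either 0 h library (0.15 and 0.0867) or without CHIR 8 h replicate 1 (0.433). Under beta-catenin the 8, 16, 24 and 48 h calls were lost without bcat 0 h replicate 2 (0.36, 0.0556, 0.339 and 0.291), the 8 and 24 h calls also without bcat 0 h replicate 1 (0.0716 and 0.0585), the 8 h call without bcat 8 h replicate 1 (0.134) and the 24 h call without bcat 24 h replicate 2 (0.053).

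FOXA1 (ENSG00000129514.5, chr14:37589984-37596059, minus strand), a paralog that overlaps FOXA2 in gut and liver, rose later than FOXA2 in the Wnt3a arm. Its level there was 0.323 and 0.0147 CPM at 0 h and 0.109 and 0.141 at 48 h. It reached 3.46 CPM at 72 h, 11.4 and 9.27 at 96 h and 6.29 and 8.56 at 120 h. The level at 96 h was 368-fold above the 2 pooled counts at 0 h (interval 101 to 3048, adjusted p = 3.25e-08). It was 6.23 ± 0.73 above 48 h on the log2 scale (adjusted p = 1.73e-07). The interval covers counting error and not the difference between the 0 h libraries. The log2 change of FOXA1 at 96 h was 8.19, or 4.97 without Wnt3a 0 h replicate 2. The call at 72 h (adjusted p = 1.11e-05) was lost without Wnt3a 0 h replicate 2 (0.117). Elsewhere FOXA1 stayed at or below 0.498 CPM. In the CHIR arm 0.328 and 0.388 CPM at 72 h, 9.12-fold above 0 h (2.24 to 80), passed at an adjusted p of 0.0354. That call was lost with any 1 of the 4 libraries of the comparison left out (adjusted p = 0.0747 to 0.244) and with DESeq2 (0.0903). No bcat hour was called.

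FOXA3 (ENSG00000170608.2, chr19:45863989-45873797, plus strand), the paralog best known from liver, was the only member above 5 CPM at 0 h, and it was so in all arms. Its level at 0 h was 15.0 and 13.9 CPM in the CHIR arm, 12.3 and 17.3 in the Wnt3a arm and 17.1 and 14.8 in the bcat arm. With CHIR99021 it fell by 0.94 ± 0.20 at 48 h (6.91 and 8.21 CPM, adjusted p = 0.000323) and by 0.76 ± 0.19 at 72 h (8.25 and 8.84 CPM, 0.00361). The bcat arm fell by 0.82 ± 0.22 at 72 h (8.84 and 8.96 CPM, adjusted p = 0.00551). With Wnt3a its log2 change was -0.60 ± 0.20 at 24 h (11.1 and 9.55 CPM, adjusted p = 0.0331) and -0.64 ± 0.20 at 48 h (7.83 and 11.7 CPM, 0.0294). It was then higher at 96 h than at 48 h by 0.97 ± 0.20 (22.4 and 17.0 CPM, adjusted p = 0.0003), with no call against 0 h (0.33 ± 0.20, 0.19). The Wnt3a 24 h call was lost without Wnt3a 0 h replicate 2 (0.638) or either 24 h library (0.0598 and 0.226), the 48 h call without Wnt3a 0 h replicate 2 (0.613) or Wnt3a 48 h replicate 1 (0.311), and the CHIR 72 h call without CHIR 72 h replicate 1 (0.0609).

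GATA4 (ENSG00000136574.17, chr8:11676959-11760002, plus strand) rose in all 3 arms, from 16 h on with CHIR99021 and beta-catenin and from 48 h on with Wnt3a. In the CHIR arm it went from 0 and 0.0296 CPM at 0 h to 1.46 and 0.363 at 16 h, 2.89 and 3.59 at 48 h and 3.61 and 2.64 at 72 h. The 48 h level was 170-fold above the single count at 0 h (interval 30 to 6740, adjusted p = 2.6e-08). Under beta-catenin 0.294 and 0 CPM at 0 h became 1.27 and 1.81 at 16 h, 3.76 and 3.66 at 48 h and 4.38 and 7.80 at 72 h, a 73.9-fold rise (13 to 2940, adjusted p = 3.66e-06). Without bcat 0 h replicate 2 its log2 change was 4.33 in place of 6.14. The rise with Wnt3a began later and went further, with 0 and 0.0147 CPM at 0 h, 0.26 and 0.128 at 24 h, 2.18 and 1.66 at 48 h, 12.3 at 72 h, 16.5 and 17.5 at 96 h and 35.8 and 34.9 at 120 h. The last was 2520-fold above 0 h (451 to 99622, adjusted p = 2.06e-11). All libraries from 48 h on lay above all libraries from 0 and 8 h. Without Wnt3a 0 h replicate 2 the Wnt3a 48 h call was not made (adjusted p = 0.0852), nor were the bcat 16 and 24 h calls without bcat 0 h replicate 2 (0.333 and 0.528) and the 24 h call without bcat 24 h replicate 1 (0.177).

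GATA6 (ENSG00000141448.8, chr18:22169443-22202528, plus strand) appeared at 48 h in every arm and was highest with Wnt3a. Wnt3a libraries held at most 0.213 CPM up to 24 h, then 17.3 and 20.3 at 48 h, 41.5 at 72 h, 37.9 and 37.4 at 96 h and 47.4 and 30.5 at 120 h. The step from 24 to 48 h was 6.67 ± 0.49 (log2 ± SE, adjusted p = 1.22e-09). CHIR libraries held 0 counts at 8, 16 and 24 h, then 0.79 and 1.2 CPM at 48 h and 8.76 and 4.65 at 72 h, with a rise of 2.82 ± 0.38 between these last hours (adjusted p = 8.78e-06). The bcat arm had GATA6 at 0 counts at 0 h, which allows at most 0.235 CPM, at 5.30 and 2.61 CPM at 48 h (adjusted p = 6e-06) and at 5.13 and 8.44 CPM at 72 h (4.13e-07). The GATA6-AS1 gene (chr18:22164886-22169878, minus strand) overlaps the start of GATA6. The libraries keep strand, but the use of strand in counting is not given in the sources used here, so reads in the overlap cannot be assigned. GATA6-AS1 was at 0 counts in all 0 h libraries and reached 4.79 and 5.82 CPM at Wnt3a 96 h and 0.347 and 0.543 CPM at CHIR 72 h. The further rise of GATA6 from 48 to 96 h with Wnt3a (1.00 ± 0.31, adjusted p = 0.0154) was lost without any 1 of its 4 libraries (0.0566 to 0.112).

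HHEX (ENSG00000152804.10, chr10:92689951-92695646, plus strand) moved in opposite directions, up with Wnt3a and down with CHIR99021 and beta-catenin. With Wnt3a it had 0 and 0.0587 CPM at 0 h, 0.584 and 0.171 at 24 h, 7.73 and 10.1 at 48 h, 12.1 at 72 h and 14.6 and 11.5 at 96 h. It then fell by 2.36 ± 0.41 to 3.01 and 2.07 CPM at 120 h (against 96 h, adjusted p = 0.000106), the only member called between these hours. The change at 96 h against 0 h was 7.74 ± 0.68 (adjusted p = 2.3e-10). In the CHIR arm 1.31 and 1.04 CPM at 0 h became 0.223 and 0.0949 at 8 h (fell by 2.72 ± 0.56, adjusted p = 0.000541, or by 3.54 without CHIR 8 h replicate 1), 0.893 and 0.654 at 16 h and 0.896 and 1.12 at 24 h. At 48 h only 2 counts were left in the 2 libraries (0.0687 and 0 CPM), 27.0-fold below 0 h (interval 7.16 to 228, adjusted p = 8.03e-06), and at 72 h 0.0579 and 0.31 CPM. Its bcat level was 3.53 and 4.6 CPM at 0 h and lower at every later hour, with 0.768 and 0.884 CPM at 8 h (fell by 2.36 ± 0.49, adjusted p = 0.000721) and 0.223 and 0 CPM at 72 h (33.0-fold lower, 10.7 to 165, 1.42e-06). The groups of 2 did not overlap in any of these calls. The share of all genes separated in this way was not computed, so this adds no weight to the calls. The Wnt3a 24 h call was lost without Wnt3a 0 h replicate 2 (0.412) or Wnt3a 24 h replicate 1 (0.356), and the CHIR 72 h call without CHIR 72 h replicate 1 (0.0766). The bcat 16 h call was lost without bcat 0 h replicate 2 (0.284) or bcat 16 h replicate 2 (0.206), and the bcat 24 h call without bcat 0 h replicate 2 (0.299) or either 24 h library (0.11 and 0.139).

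CXCR4 (ENSG00000121966.6, chr2:136114349-136118165, minus strand) had its highest level not in the Wnt3a arm but at CHIR 48 h. The CHIR arm held 2.36 and 2.19 CPM at 0 h, 2.19 and 1.91 at 24 h, 270 and 237 at 48 h and 67.4 and 43.3 at 72 h. The step from 24 to 48 h was 6.98 ± 0.27 (adjusted p = 1.51e-17), after which the level fell by 2.18 ± 0.19 (2.58e-09). The bcat arm had an early rise from 1.47 and 2.14 CPM at 0 h to 8.73 and 6.19 at 8 h (2.00 ± 0.37, adjusted p = 0.000231). It held 3.13 and 2.97 CPM at 24 h, 12.7 and 10.1 at 48 h and 76.1 and 72.7 at 72 h (5.25 ± 0.31 above 0 h, 1.09e-13). With Wnt3a CXCR4 climbed from 0.647 and 0.528 CPM at 0 h through 1.75 and 1.75 at 24 h, 2.61 and 3.14 at 48 h and 19 at 72 h to 43.2 and 36.5 at 96 h (6.2 ± 0.33, 1.08e-14) and 39.7 and 24.3 at 120 h. The Wnt3a 24 and 48 h calls were lost without Wnt3a 0 h replicate 2 (0.484 and 0.21).

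The ligand of CXCR4, CXCL12, fell where CXCR4 was highest, while ACKR3, the other receptor for this ligand, rose at CHIR 48 h and bcat 72 h. CXCL12 stood at 29.3 and 27.7 CPM at CHIR 0 h and 2.06 and 1.85 at CHIR 48 h, where it fell by 3.85 ± 0.22 (adjusted p = 1.47e-14). CXCL12 fell with Wnt3a from 33.0 and 37.7 CPM to 6.53 and 6.95 at 96 h (2.42 ± 0.20, adjusted p = 6.78e-11), and in the bcat arm from 30.0 and 39.2 to 12 and 10 CPM at 72 h (1.67 ± 0.21, adjusted p = 2.13e-07). ACKR3 rose at CHIR 48 h from 0.603 and 0.563 to 3.57 and 5.55 CPM (2.95 ± 0.47, adjusted p = 9.16e-06) and at bcat 72 h from 3.82 and 2.14 to 8.25 and 6.01 CPM (1.37 ± 0.48, 0.0312). With Wnt3a ACKR3 was not called at 96 h (0.66 ± 0.49, adjusted p = 0.302).

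At 0 h HHEX and CXCR4 were the members called between arms. Of the 8 members 1 was called between bcat and CHIR 0 h (15.6% of all genes called), 2 between bcat and Wnt3a 0 h (23.9%) and 2 between Wnt3a and CHIR 0 h (10.8%). The first 2 counts lie near the shares of all genes, and 2 of 8 is too few to set the third apart. HHEX was higher in bcat than in CHIR by 1.84 ± 0.46 (adjusted p = 0.00525) and than in Wnt3a by 6.10 ± 0.71 (1.69e-07), and Wnt3a against CHIR differed by -4.26 ± 0.70 (0.000131). CXCR4 was higher in bcat than in Wnt3a by 1.85 ± 0.53 (adjusted p = 0.0105), and Wnt3a against CHIR differed by -2.07 ± 0.38 (0.00045). Without Wnt3a 0 h replicate 2 the CXCR4 calls (0.421 and 0.36) and the HHEX call against CHIR (0.123) were lost. Without bcat 0 h replicate 2 the bcat calls of CXCR4 (0.39) and of HHEX against CHIR (0.119) were lost, the latter also without CHIR 0 h replicate 2 (0.0709).

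Because the 0 h levels differed, the arms were first compared as the change from their own 0 h, at the hours they share. For CHIR minus Wnt3a 1, 3 and 1 members were called at 24, 48 and 72 h, against 9.93%, 16% and 8.99% of all genes. For CHIR minus bcat the counts were 0, 1 and 0 (4.88%, 16.5% and 7.19%), and for Wnt3a minus bcat 1, 1 and 1 (15%, 12.1% and 11.9%). HHEX was the member called in all of the latter. Except for the 3 members at 48 h, these counts lie near or below the shares of all genes. The change of HHEX was larger with Wnt3a than with beta-catenin by 3.97 ± 0.93 at 24 h (adjusted p = 0.00347), 9.78 ± 0.86 at 48 h (2.16e-09) and 12.59 ± 0.98 at 72 h (1.3e-10). For CHIR minus Wnt3a it was -11.84 ± 0.98 at 48 h (1.81e-10) and -10.85 ± 0.93 at 72 h (9.12e-10). These HHEX differences rest on 4 counts at Wnt3a 0 h, 2 at CHIR 48 h and 3 at bcat 72 h. Wnt3a 72 h is 1 library, and bcat 72 h replicate 2 held 0 counts. CXCR4 changed more with CHIR99021 than with Wnt3a at 48 h by 4.35 ± 0.51 (adjusted p = 2.38e-07) and than with beta-catenin by 4.24 ± 0.58 (3.73e-06), and less than with Wnt3a at 24 h (-1.88 ± 0.52, 0.0186). GATA6 changed less with CHIR99021 than with Wnt3a at 48 h (-5.16 ± 1.55, adjusted p = 0.0225). The HHEX difference at 24 h was lost without Wnt3a 0 h replicate 2 (0.187) or Wnt3a 24 h replicate 1 (0.0883). The CXCR4 difference between CHIR and Wnt3a was lost without Wnt3a 0 h replicate 2 at 24 h (0.493) and 48 h (0.141), and at 24 h without replicate 2 of CHIR 24 h (0.0936) or of Wnt3a 24 h (0.0706). The GATA6 difference was lost without CHIR 0 h replicate 1 (0.293) or Wnt3a 0 h replicate 2 (0.26). It rests on 3 counts at CHIR 0 h and 2 at Wnt3a 0 h. SOX17, FOXA2, FOXA1 and GATA4, with 0 to 5 counts at each 0 h, were not called in any of these differences, and at 48 h for CHIR minus Wnt3a the SE was 2.08 for FOXA2, 1.96 for FOXA1 and 2.89 for GATA4. DESeq2 called 9 of the 24 differences for CHIR minus Wnt3a in place of 5.

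A direct comparison of the arms at the same hour, chosen after seeing the data, does not need the 0 h libraries. Between CHIR and Wnt3a 3, 5 and 8 of the 8 members were called at 24, 48 and 72 h, against 20.5%, 34.3% and 18.9% of all genes. At 72 h 7 of them were lower with CHIR99021 and CXCR4 alone was higher, by 1.55 ± 0.25 (67.4 and 43.3 against 19 CPM, adjusted p = 2.67e-05). HHEX was 227-fold lower with CHIR99021 at 48 h (interval 62.3 to 1880, adjusted p = 1.46e-10) and differed by -6.59 ± 0.60 (log2) at 72 h (1.39e-09), smaller than its differences of changes. SOX17 was at least 195-fold lower with CHIR99021 at 48 h (adjusted p = 5.25e-08) and at least 1558-fold lower at 72 h (1.32e-09). FOXA2 was lower with CHIR99021 at 48 h (log2 difference of -6.4 ± 0.43, adjusted p = 9.39e-13), as was GATA6 (-4.27 ± 0.38, 3.04e-09). At 24 h GATA4 was instead higher with CHIR99021 by 2.11 ± 0.70 (adjusted p = 0.0313), and CXCR4 was not called (0.19, 0.772), unlike its change from 0 h.

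Between Wnt3a and bcat 2, 5 and 6 members were called at 24, 48 and 72 h, against 26.5%, 28.8% and 25.1% of all genes. SOX17 was 310-fold higher with Wnt3a at 48 h (interval 55.3 to 12264, adjusted p = 1.06e-06), FOXA2 by 5.60 ± 0.43 on the log2 scale (4.6e-11) and GATA6 by 2.18 ± 0.34 (2.76e-05). HHEX was higher with Wnt3a at 48 h (3.68 ± 0.49, adjusted p = 9.11e-07) and 72 h (92.4-fold, 31.4 to 450, 1.07e-08) but lower at 24 h (-2.12 ± 0.53, 0.003), the opposite of its change from 0 h. CXCR4 was lower with Wnt3a than with beta-catenin at 48 h (-1.96 ± 0.27, 1.73e-06) and 72 h (-1.97 ± 0.25, 9.43e-07). CHIR and bcat had 0, 3 and 1 members called, against 17.3%, 30.6% and 19.3%. At 48 h CHIR had more CXCR4 (4.45 ± 0.22, adjusted p = 5.44e-15), less GATA6 (-2.09 ± 0.40, 0.000225) and less HHEX (17.0-fold, 4.06 to 151, 0.000547) than bcat. At 72 h it had more FOXA2, with 38 counts against 1 (13.5-fold, 2.28 to 546, adjusted p = 0.00229). These comparisons carry the cytosolic and mitochondrial ribosomal RNA differences given above between bcat and the other arms.

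Between successive late hours the members moved mostly between 24 and 96 h. In the CHIR arm 5 of 8 were called between 24 and 48 h and 2 between 48 and 72 h, against 25.4% and 13% of all genes. Wnt3a libraries gave 5 calls between 24 and 48 h, 6 between 48 and 96 h and 1 between 96 and 120 h, against 19%, 30.3% and 22.6%. For bcat 3 were called between 24 and 48 h and 1 between 48 and 72 h, against 8.99% and 6.18%. The CHIR step from 24 to 48 h joined rises of CXCR4, GATA4 (2.00 ± 0.49, adjusted p = 0.0025) and GATA6 with falls of FOXA2 and HHEX. The bcat step joined rises of GATA4 (1.93 ± 0.48, adjusted p = 0.00775), GATA6 and CXCR4 (1.93 ± 0.25, 2.64e-06). That GATA4 call was lost without bcat 24 h replicate 2 (0.255) or bcat 48 h replicate 1 (0.0587).

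Per kilobase of exon, the scale on which different genes can be set side by side, SOX17 led at Wnt3a 72, 96 and 120 h, and CXCR4 at CHIR 48 and 72 h and bcat 72 h. At bcat 48 h the libraries of CXCR4 (4.52 and 5.69) and FOXA3 (4.34 and 5.54) overlapped. FOXA3 led in all arms at 0 to 24 h, and FOXA2 (8.31 CPM per kb, against 4.79 for SOX17) at Wnt3a 48 h. At Wnt3a 96 h the mean level was 51.5 CPM per kb for SOX17, 17.9 for CXCR4, 10.2 for FOXA2, 9.54 for GATA6, 8.97 for FOXA3, 5.17 for HHEX, 3.83 for GATA4 and 2.60 for FOXA1. SOX17 (37.7 and 65.3) stood apart from CXCR4 (16.4 and 19.4), while the libraries of FOXA2 (8.79 and 11.7), GATA6 (9.48 and 9.61) and FOXA3 (7.74 and 10.2) overlapped. At CHIR 48 h CXCR4 was at 114 CPM per kb and FOXA3 at 3.45, and the other 6 members were at or below 0.729. At bcat 72 h CXCR4 was at 33.4, FOXA3 at 4.06, GATA6 at 1.72, GATA4 at 1.37 and the remaining 4 at or below 0.0701. The ranges of GATA6 and GATA4 overlapped there.

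**Figure D3:**
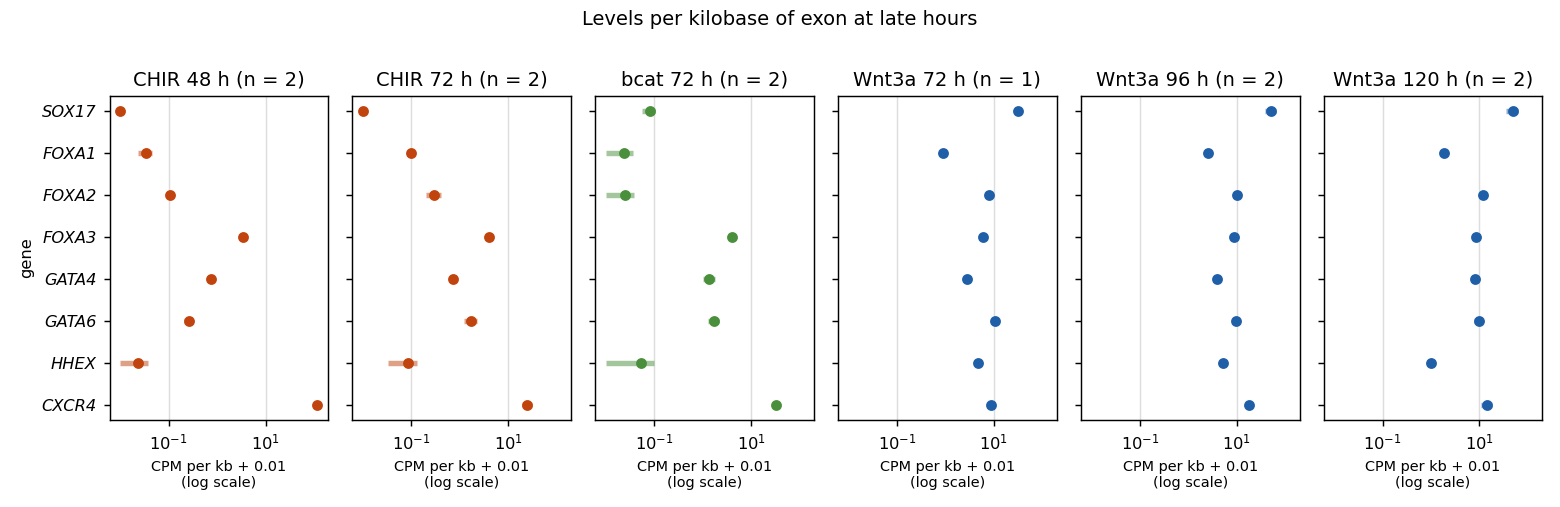
Level of each gene (rows) as CPM per kilobase of exon + 0.01 on a log axis at 6 late groups, with the mean as a point and the range of the libraries as a bar. At Wnt3a 96 h the 8 means lie between 2.60 and 51.5, whereas at CHIR 48 h CXCR4 stands at 114 and SOX17 at 0.

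Over the 19 group means of log2 CPM, the highest Pearson r between members were 0.88 (SOX17 and FOXA1), 0.87 (SOX17 and FOXA2), 0.84 (GATA4 and GATA6), 0.82 (SOX17 and GATA6) and 0.80 (FOXA1 and FOXA2). CXCR4 went with GATA4 (0.79) more than with SOX17 (0.35), FOXA2 (0.22) or HHEX (-0.01). FOXA3 had r of at most 0.44 with any other member. These values describe groups that share libraries and time trends and have no p.

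Among 13757 genes with at least 5 CPM in 1 group, those whose 19 group means were most like SOX17 were AMHR2 (r = 0.97), LINC00261 (0.96) and CST1 (0.94). LINC00261, a noncoding gene next to FOXA2, was also second for FOXA2 (0.91), after FAM159B (0.91) and before MYL7 (0.89). LINC00261 (chr20:22547671-22578642, minus strand) held at most 0.523 CPM in all CHIR and bcat libraries and in Wnt3a libraries to 24 h, 2.61 and 4.51 CPM at Wnt3a 48 h, 21.2 at 72 h, 13.6 and 20.5 at 96 h and 66.5 and 47.9 at 120 h. GATA6 was most like GATA6-AS1 (0.95), FLRT3 (0.95) and BMP2 (0.93), with the overlap of the first as given above. The closest to FOXA1 were MANEA (0.95), VWF (0.93) and CLVS2 (0.93), to FOXA3 AC005944.2 (0.89), AES (0.87) and GRIN2B (0.87), and to GATA4 MATN3 (0.94), B4GALT1 (0.92) and PTPRM (0.92). HHEX was closest to RP11-445F12.1 (0.90), OPRK1 (0.85) and KIT (0.85), and CXCR4 to HHIPL2, DLC1 and ARHGAP24 (0.92 each).

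Other endoderm genes were mostly called higher with Wnt3a from 72 h on, and both higher and lower in the other arms. Of 14 companion genes of endoderm 13 were tested. With Wnt3a 3 were higher and 0 lower at 8 h, 5 and 3 at 24 h, 6 and 1 at 48 h and 10 and 2 at 72 h, against 3.43%, 20.1%, 16.1% and 16.3% of all genes called. At Wnt3a 96 h 10 were called higher and 2 lower with a median log2 change of 4.28, and at 120 h 9 and 2 with 4.19, where all genes had medians of 0.06 and 0.00 and 39.7% and 27.6% were called. At CHIR 48 h 4 were higher and 7 lower (median -1.78). The split was 4 and 4 at CHIR 72 h (-0.23), with 2 and 4 at bcat 72 h (0.31), hours at which 33.9%, 24.9% and 27.2% of all genes were called. CER1, a secreted NODAL and BMP inhibitor of anterior endoderm, was at 502 and 646 CPM at Wnt3a 48 h, 115 and 83.6 at 96 h and 6.03 and 4.85 at 120 h. It was at 0 counts in both CHIR 48 h libraries. FGF17 rose in all arms, to 341 and 310 CPM at CHIR 48 h, 131 and 87.4 at Wnt3a 96 h and 93.7 and 104 at bcat 72 h, and made up most of the summed level of the list at CHIR 48 and 72 h. OTX2, a factor of anterior tissue, fell to 1.97 and 1.71 CPM at CHIR 72 h (-4.42 ± 0.23, adjusted p = 1.62e-15) and to 3.34 and 2.00 at bcat 72 h (-3.61 ± 0.25, 2.44e-12). PRDM1, a transcriptional repressor, reached 25.9 to 41.5 CPM at Wnt3a 120 h (7.46 ± 0.71, adjusted p = 6.57e-09). LHX1, a factor of the node and anterior endoderm, was at 47.3 and 49.2 CPM at Wnt3a 96 h (8.04 ± 0.78, adjusted p = 1.82e-08) and left with 1 count at CHIR 48 h.

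Of 8 genes of the anterior streak, the stage before endoderm, 5 were called higher and 1 lower at CHIR 48 h (median 1.89), 6 and 1 at Wnt3a 96 h (6.52) and 4 and 0 at bcat 72 h (4.34), hours at which 33.9%, 39.7% and 27.2% of all genes were called. At CHIR 72 h 7 were higher and 0 lower (median 4.92), where 24.9% of all genes were called. Their summed level was 346 to 347 CPM at CHIR 48 h and 676 to 701 at CHIR 72 h. It was 240 to 249 CPM at Wnt3a 96 h and 222 to 259 at bcat 72 h. NODAL-ACTIVIN genes were called in both directions. Of 18 tested 8 were called higher and 2 lower at Wnt3a 96 h (median 0.29). The split was 3 and 7 at CHIR 48 h (-0.18), while bcat 72 h had 6 and 5 (0.16). The shares of all genes called at these hours are given above. The all-gene medians were 0.06, 0.02 and 0.06 in the same order. NODAL itself peaked at 157 and 172 CPM at Wnt3a 48 h, and at 16 h the CHIR libraries held 67.0 and 65.3 CPM, the bcat libraries 76.9 and 74.1, with 0.344 and 0.272 CPM left at CHIR 48 h. TDGF1, the NODAL co-receptor, fell to 0.707 to 0.722 CPM at CHIR 48 h (-6.75 ± 0.24, adjusted p = 1.63e-19), and FST, an ACTIVIN antagonist, rose to 585 to 753 CPM at bcat 72 h (6.17 ± 0.21, 7.83e-19). EOMES was at 307 and 332 CPM at Wnt3a 48 h and 107 and 121 at 96 h (9.44 ± 0.67, adjusted p = 5.97e-10). It reached 75.0 and 71.4 CPM at CHIR 24 h and fell to 0.241 and 0.326 CPM at CHIR 48 h. T, the marker of the streak and its mesoderm, stood at 136 to 146 CPM at CHIR 48 h (10.48 ± 0.33, 3.56e-20) and 90.7 to 110 at bcat 72 h (1.16e-16, from 1 count at 0 h).

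**Figure D4:**
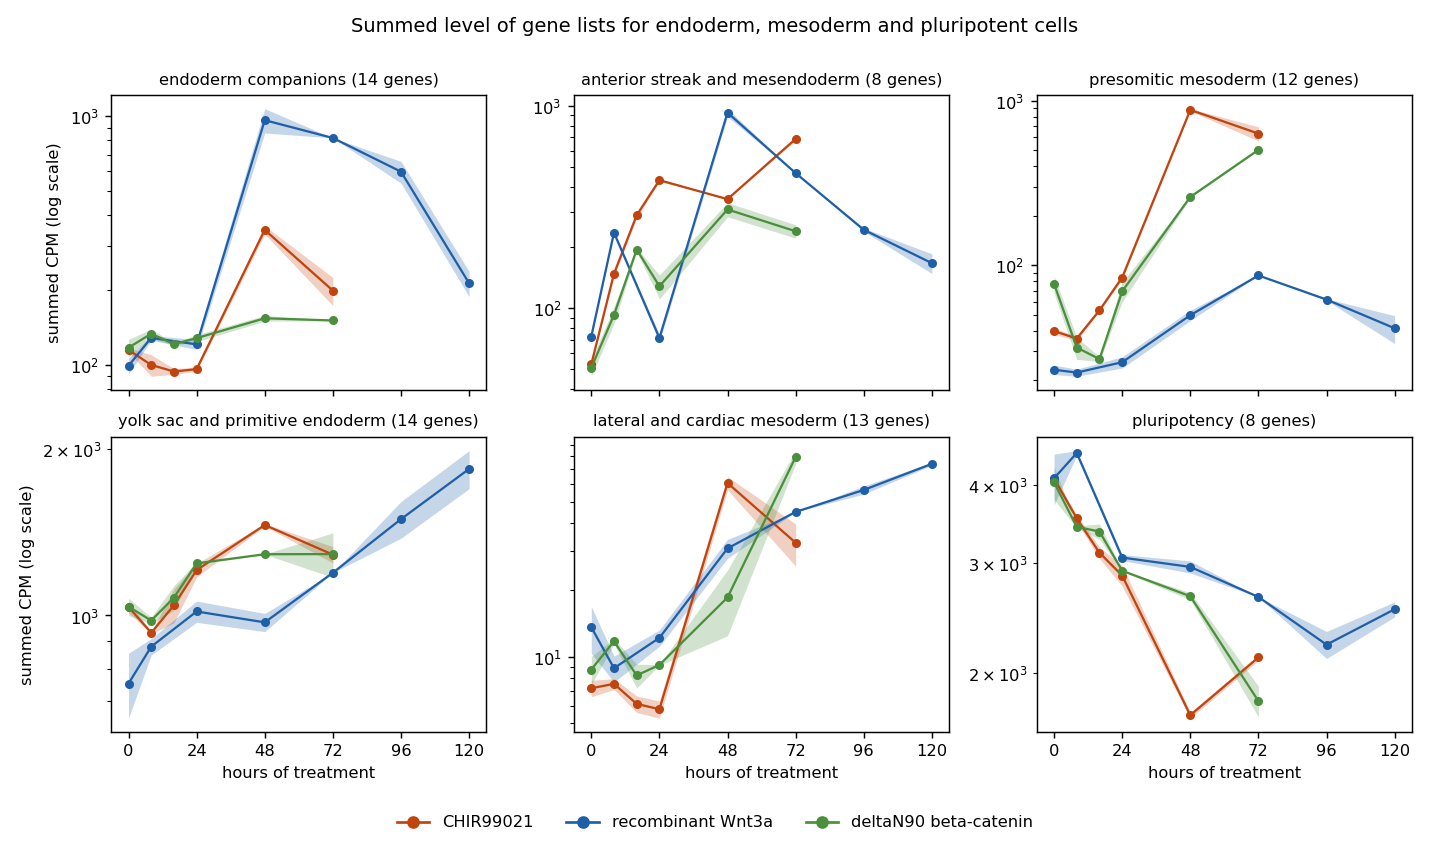
Summed CPM of 6 gene lists (log axis) against hours of treatment, as the midpoint of the libraries of a group with a band over their range, for the CHIR (orange), Wnt3a (blue) and bcat (green) arms. Presomitic mesoderm genes reach 868 to 897 CPM at CHIR 48 h and 61.2 to 62.7 at Wnt3a 96 h, and endoderm companions are highest at Wnt3a 48 h.

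Markers of other tissues moved beside the members, and their part in the values above was not tested. Presomitic mesoderm genes (11 of 12 tested) had 8 members called higher and 3 lower at CHIR 48 h (median 4.92), 7 and 1 at bcat 72 h (1.51), and 5 and 0 at Wnt3a 96 h (1.02 with zero groups at their bounds), where 33.9%, 27.2% and 39.7% of all genes were called. Their summed level was 868 to 897 CPM at CHIR 48 h and 500 to 508 at bcat 72 h, the hours at which CXCR4 was highest in these arms. The levels did not run in parallel throughout. At CHIR 72 h the sum was 571 to 696 CPM, above bcat 72 h. CXCR4 stood there at 67.4 and 43.3 CPM, below its 76.1 and 72.7 CPM at bcat 72 h. At Wnt3a 96 h the summed level was 61.2 to 62.7 CPM, from 21.7 to 24.7 CPM at Wnt3a 0 h. MESP2 (3.1 ± 0.45, adjusted p = 2.32e-06), DLL3 (2.07 ± 0.26, 3.85e-07) and DLL1 (1.9 ± 0.36, 9.66e-05) were among the genes called higher at Wnt3a 96 h. The defining marker MSGN1 was at 0 counts at that hour, against 80.3 and 61.4 CPM at CHIR 48 h. CDX1, a factor of posterior mesoderm, was at 211 and 273 CPM at CHIR 48 h, 118 and 107 at bcat 72 h and 0.0484 and 0.0473 at Wnt3a 96 h. Lateral and cardiac mesoderm genes (12 of 13 tested), a tissue that also carries GATA4 and GATA6, had 9 higher and 0 lower at Wnt3a 120 h (27.6% of all genes called), with a summed level of 72.9 to 75.1 CPM. In this list HAND1 stood at 10.5 to 17.7 and ISL1 at 15.6 to 16.5 CPM at that hour. At bcat 72 h (27.2%) the list had 5 higher and 1 lower with 74.1 to 84.9 CPM.

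Genes of yolk sac and primitive endoderm, which share SOX17, GATA4, GATA6 and FOXA2 with definitive endoderm, were measured for the same reason. Of 13 tested among 14, 8 were higher and 1 lower at Wnt3a 120 h (median 1.37, 27.6% of all genes called), and the summed level was 1693 to 1984 CPM against 653 to 855 at Wnt3a 0 h. HNF4A reached 11.5 to 12.9 CPM, APOA1 26.2 to 26.5 and DAB2 84.7 to 90.7 at that hour. SOX7 was at 0.655 and 0.785 CPM and TTR at 0 and 0.285. AFP was at 0.524 and 0.285 CPM, from 2.26 and 1.39 CPM at Wnt3a 0 h, and was called lower at 96 h (-3.07, adjusted p = 6.78e-05) and 120 h (-2.00, 0.00544). Laminins and collagens of this list are shared with stem cells. Endothelial and blood genes, among which HHEX and CXCR4 are also found, had 6 higher and 1 lower of 15 tested at Wnt3a 96 h (median 1.22), with VWF at 27.6 to 37.6 CPM and GATA1 at 0 counts, and 3 higher and 2 lower at CHIR 48 h. With 39.7% and 33.9% of all genes called at these hours, these counts lie near the background.

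Relatives of the members were called too. Of 9 tested SOXF, GATA and FOX relatives, 6 were higher and 1 lower at Wnt3a 120 h (27.6% of all genes called), with GATA3 at 15.7 to 19.5 CPM from 0 counts and GATA5 at 8.25 to 9.13 CPM from 3 counts (adjusted p = 9.63e-09). At CHIR 48 h (33.9%) 5 were higher and 0 lower, with FOXC1 at 13.1 to 17.0 CPM (6.64 ± 0.53, 1.72e-11) and FOXF1 at 3.57 to 10.8 CPM, both factors of mesoderm. FOXC1 was not particular to the CHIR arm, with 18.6 to 21.0 CPM at Wnt3a 96 h (7.72 ± 0.63, adjusted p = 5.05e-11). FOXF1 was lower with Wnt3a, at 0.524 to 0.785 CPM at 120 h. Pluripotency genes were lower in all arms, with 8 of 8 at CHIR 48 h (median -3.87) and bcat 72 h (-2.28) and 6 of 8 at Wnt3a 96 h (-1.09), where 33.9%, 27.2% and 39.7% of all genes were called in either direction. NANOG was left with 0.55 to 0.762 CPM at CHIR 48 h and 35.2 to 47.0 at Wnt3a 120 h.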

How the data were processed

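The deposited gene table held estimated counts, made by the authors with kallisto 0.43.0 per the submitters' processing notes. From the values, each library carries a constant factor (0.265 to 6.58, read as the value most genes share at 1 count). Dividing by it made 57.5% to 81.4% of the values below or at 20 counts whole to within 0.1, and the quotients were then rounded. The genome build, the annotation and whether strand was used are details not given in the sources used here. Positions came from GENCODE 29 (GRCh38) by symbol, and 27 symbols turned into dates are not named. Tests came from 1 quasi-likelihood fit (edgeR 4.0.16, R 4.3.3) with 19 group means, 37 libraries and 18 residual degrees of freedom, on 24304 genes that filterByExpr left, with TMM, a dispersion trend and robust estimation. The lone Wnt3a 72 h library is taken to vary as other groups do. Benjamini-Hochberg adjustment ran over the genes of a comparison, calls were made below 0.05, and p-values measure the spread between these libraries. A fold against 1 to 3 counts is a count ratio with an exact 95% interval, and against 0 counts a bound from 3 counts over the group. The code was tested on simulated data. Alternatives were DESeq2 1.42.0 and its size factors, values as deposited, other filters and library subsets, and direct comparison of arms. The members and lists were chosen with earlier results of these data known. All members were named, with up to 3 genes per list that had the largest called changes at CHIR 48 or 72 h, Wnt3a 96 or 120 h or bcat 72 h. NODAL, CXCL12, ACKR3, SOX7, TTR, GATA1 and the hours shown for CER1 and EOMES were named outside this rule, after their values were seen. Of the list genes that the rule selects the text names only a part, and 1 is not reported here.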

Additional observations from a re-analysis of the deposited data

Results flagged for a closer look

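HHEX is listed because its change from 0 h was called in opposite directions in 2 arms and the difference itself was called. For CHIR minus Wnt3a the difference of log2 changes was -11.84 at 48 h and -10.85 at 72 h. For Wnt3a minus bcat it was 3.97 at 24 h, 9.78 at 48 h and 12.59 at 72 h. The 0 h level entered each of these values and was 0 and 0.0587 CPM in Wnt3a, 1.31 and 1.04 in CHIR and 3.53 and 4.6 in bcat. Compared directly at 24 h, HHEX was lower with Wnt3a than with bcat (0.584 and 0.171 against 1.53 and 1.54 CPM). At 48 and 72 h the direct differences kept the direction and were smaller: 227-fold lower with CHIR99021 than with Wnt3a at 48 h (2 counts left with CHIR99021) and -6.59 on the log2 scale at 72 h, and with Wnt3a 3.68 above bcat at 48 h and 92.4-fold above it at 72 h. HHEX held 4 counts at Wnt3a 0 h and 3 at bcat 72 h, and Wnt3a 72 h is 1 library. Without Wnt3a 0 h replicate 2, 0 counts are left at Wnt3a 0 h.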

How the results depend on the processing

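Of 108 called member results, all kept their direction and call with DESeq2 size factors, with at least 20 counts in 2 libraries, without ribosomal RNA and with p-values adjusted over pooled comparisons. The numbers kept were 107 without a filter, 104 with values as deposited and 104 of 107 with only the arm or arms compared in the fit. They were 103 with DESeq2 and 102 without the 4 libraries of low depth or high ribosomal RNA. Without Wnt3a 0 h replicate 2, which leaves the 2.45 M library alone at 0 h, 16 of 45 calls were lost, and without bcat 0 h replicate 2 10 of 26.

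With 1 library left out, calls against 0 h numbered 16 to 19 in the CHIR arm (19 of 40 in the full fit), 24 to 33 in the Wnt3a arm (33 of 48) and 11 to 20 in the bcat arm (19 of 40), 11 being without bcat 0 h replicate 2. Calls of the difference of changes numbered 2 to 6 for CHIR minus Wnt3a, 1 for CHIR minus bcat and 2 to 3 for Wnt3a minus bcat, and calls at 0 h between arms 2 to 5. DESeq2 called 9 differences for CHIR minus Wnt3a in place of 5 and 7 for Wnt3a minus bcat in place of 3, and values as deposited gave 5 for the latter. Without the 4 doubted libraries the bcat arm had 13 calls. Comparing the arms directly at the same hour gave 16, 4 and 13 calls in place of 5, 1 and 3. It reversed CXCR4 for CHIR against Wnt3a at 24 h to 0.19 (adjusted p = 0.772) and HHEX for Wnt3a against bcat at 24 h to -2.12 (0.003). The direct comparison leaves out the 0 h levels by its construction. For the other settings the cause was not tested.

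No shared deviation of same-numbered replicates was seen. Over 15 pairs of groups per arm the correlation of same-numbered deviations ran from -0.0519 to 0.0552. These values do not tell whether same-numbered samples were grown together. With a replicate block 107 of 108 calls were kept and the CHIR arm had 18 calls. The deepest libraries limit a level of 0 counts to a few hundredths of a CPM, and the 2.45 M library to about 1 CPM.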
